A study of Mus musculus with 4 samples.

Results

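Expression of 7 surface and secreted marker genes of lymphatic endothelium, Lyve1, Pdpn, Thy1, Ackr2, Ccl21a, Mmrn1 and Reln, was followed in lymphatic endothelial cells from the meninges of aged mice. They were chosen by name, and all 7 had a row among the 9114 genes deposited. The cells came from male C57BL/6J mice of 20 to 24 months, 4 weeks after an injection of 5 µL of virus into the cisterna magna, the fluid space behind the cerebellum. The virus, AAV1-CMV-mVEGF-C in one group and AAV1-CMV-eGFP in the control group, carried either mouse VEGF-C or the fluorescent protein eGFP behind the CMV promoter, which is not limited to a cell type. Live single cells without CD45 on their surface and with CD31 and podoplanin were sorted, and each library was made from the cells of 10 pooled mice. There were 2 libraries per group, so each group's spread is that between 2 pools, and no untreated mice or young mice were compared.

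Lymphatic vessels drain fluid, solutes and immune cells from tissues, and those of the dura carry material from the fluid around the brain to the deep cervical lymph nodes. VEGF-C is the main growth factor of lymphatic endothelium and acts through the receptor VEGFR3. The blind-ended capillaries take up fluid and cells and are known for LYVE-1 and the chemokine CCL21, whereas the collecting vessels downstream have less LYVE-1. Podoplanin marks lymphatic endothelium as a whole, ACKR2 removes inflammatory chemokines from the vessel surface, and multimerin-1 and reelin are secreted.

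Between 25610683 and 28632461 reads per library fell on the genes of the table. Genes of endothelial and lymphatic identity were present in every library. Prox1, the transcription factor that maintains lymphatic fate, lay between 34631 and 47743 normalised counts, and Flt4, which encodes VEGFR3, between 50600 and 72373. Pecam1, which encodes CD31, lay between 13962 and 23932, and its presence is a condition of the sort. Dcn, the highest of the fibroblast markers read below, lay between 9307 and 24367, so these levels do not show that other cell types were absent. Vegfc itself was not analysed here. Normalised counts are reads divided by a scaling factor of the library, and they grow with transcript length as well as with abundance. No gene's replicates lay further apart than 2.83 on the log2 scale in the eGFP pair or 4.24 in the mVEGF-C pair. These sharp limits were read from the values and are stated in no source used here. They look like a filter on replicate spread. If so, the p-values across the table are too small and the intervals too narrow, by an unknown amount. The widest gap between any 2 libraries was 2.0 among the 7 marker genes, so all 7 would lie within the narrower limit under any pairing of the libraries, as would 69.0% of all genes.

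The near-identical copies of Ccl21a bear on its values and are shown first. Ccl21a encodes the serine form of the chemokine CCL21, which guides CCR7-bearing dendritic cells and T cells into lymphatic vessels and lymph nodes. Its coding sequence of 402 bases differed from that of Ccl21b, the leucine form, at 2 bases (99.5% identity), T84A and C194T, counted from 1 at the first base of the start codon, with the Ccl21a base first. T84A left glycine unchanged, and C194T turned codon 65 from TCA, serine, to TTA, leucine. Another copy, Gm21541, which RefSeq calls Ccl21d, had the same coding sequence as Ccl21b. The stretch from coding position 69 to 209, from the GENCODE transcripts on GRCm38, is given 5′ to 3′ because it holds both differences, which stand in capitals.
Ccl21a: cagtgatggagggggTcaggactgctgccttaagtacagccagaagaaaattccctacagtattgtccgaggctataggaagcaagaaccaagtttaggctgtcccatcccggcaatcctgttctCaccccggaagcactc
Ccl21b: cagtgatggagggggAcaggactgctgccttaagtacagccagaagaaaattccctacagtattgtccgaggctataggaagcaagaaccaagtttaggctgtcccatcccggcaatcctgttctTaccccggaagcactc

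Of the 840 stretches of 31 bases in the Ccl21a transcript, 677 (80.6%) also stand in Gm21541, 668 (79.5%) in Gm13304 and 310 (36.9%) in Ccl21b, whereas the other 6 marker genes shared between 0% and 1.21% of theirs with any other gene. The Ccl21b transcript model holds only the 402 coding bases, against 870 bases for Ccl21a and Gm21541. Its lower percentage therefore does not show a less similar sequence. Reads on Ccl21a could not all be told from reads on its copies, and its counts are uncertain to that degree. Gm10591, whose transcript is identical to that of Ccl21b, also shares 310 stretches with Ccl21a, and reads on Ccl21b cannot be told from reads on it. Gm13304 and Gm10591 were not analysed here.

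Per length of exon, the 7 genes spanned from among the most abundant genes of the table to a moderate level. Levels are given as RPKM, that is reads scaled to exon length and to the library's reads on the genes of the table. Ranks and shares of reads take in those genes only, and genes left out of the table could change them. Exon length is the union of the exons of all annotated transcripts, 23738 bases over 15 transcripts for Reln. The order of the genes depends on that choice, and other lengths were not tried. Ccl21a was highest, at 5150 and 5124 in eGFP and 5284 and 4436 in mVEGF-C. Its mean of 4998 ranked 5 of 9006 genes. Lyve1 followed at a mean of 779 (rank 13) and Mmrn1 at 740 (rank 14). These neighbours did not separate, as their ranges over the 4 libraries overlapped and Lyve1 was the higher in 3 of 4. Reln at a mean of 122, Thy1 at 102 and Pdpn at 76.8 formed a lower tier in which neighbours also overlapped. Ackr2 was lowest at a mean of 35.0 (rank 897), and its highest library, at 55.2, was just under the lowest library of Pdpn, at 58.8. Of the reads on the genes of the table, the 7 genes together took 1.46% in both eGFP libraries, 1.52% in mVEGF-C 1 and 1.33% in mVEGF-C 2.

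**Figure D1:**
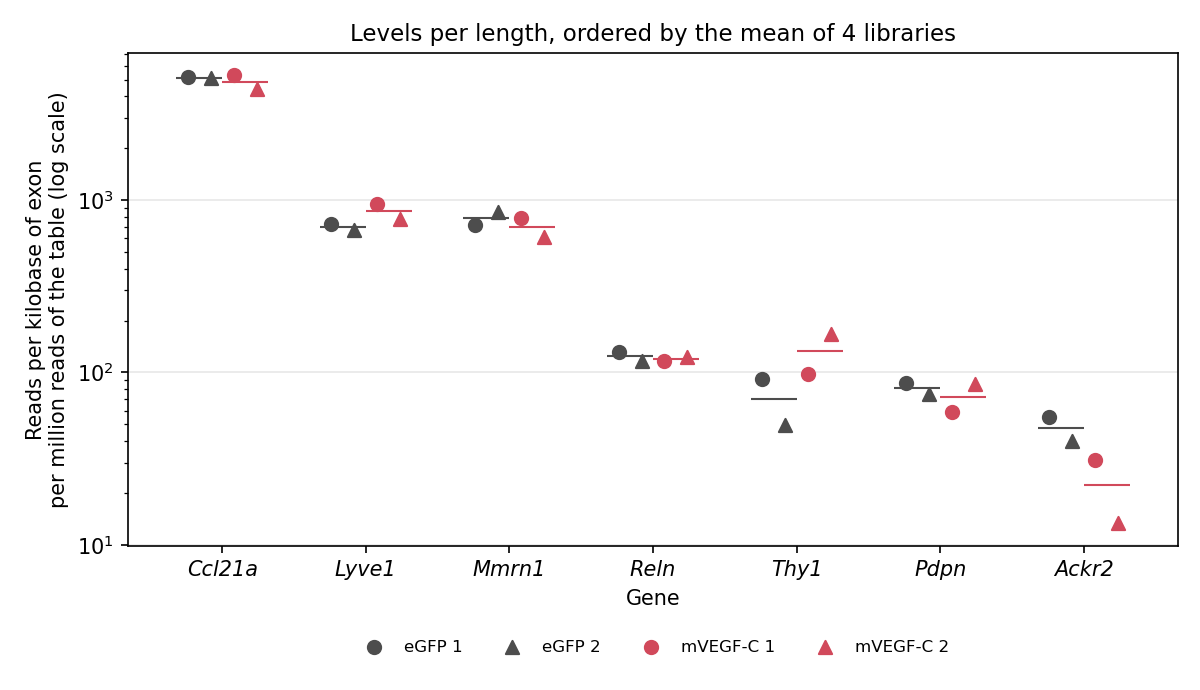
Level of the 7 marker genes per length of exon, in RPKM on a log axis, with 1 point per library, eGFP in grey, mVEGF-C in red and a line at each group's mean of 2 libraries. Ccl21a stands alone at the top, Lyve1 and Mmrn1 lie together, Reln, Thy1 and Pdpn overlap, and Ackr2 lies lowest, with its lowest point at 13.3 in mVEGF-C 2.

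The comparison of mVEGF-C with eGFP asks whether these markers differ after 4 weeks of VEGF-C delivery. None of the 7 passed the test (limma on log2 of the normalised count + 1, Benjamini-Hochberg adjusted p under 0.05 over 9063 genes), where 2.14% of all genes did. None of the 7 reached an unadjusted p under 0.05 either, and edgeR and DESeq2 on the recovered reads called none. In 4 of the 7 the groups did not overlap (39.2% of all genes), 3 with mVEGF-C higher (19.4% of all) and 1 with mVEGF-C lower (19.8% of all). The median difference of the 7 on the log2 scale was 0.00, with 3 above 0, beside -0.02 over all genes, where 4482 of 9063 were above 0. Their median absolute difference was 0.11, beside 0.79 over all genes. These 2 medians are not matched for abundance. By mean normalised count the 7 ranked from 5 to 1840, and the SE of the fit, larger for low genes, reached 1.315 over all genes. Differences below are mVEGF-C minus eGFP on that log2 scale. The fit took each gene's error from the trend of the variance over all genes, not from the gene's own 2 pairs of replicates. In RNA from a sorted population, fewer cells of a type and less RNA per cell cannot be told apart.

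**Figure D2:**
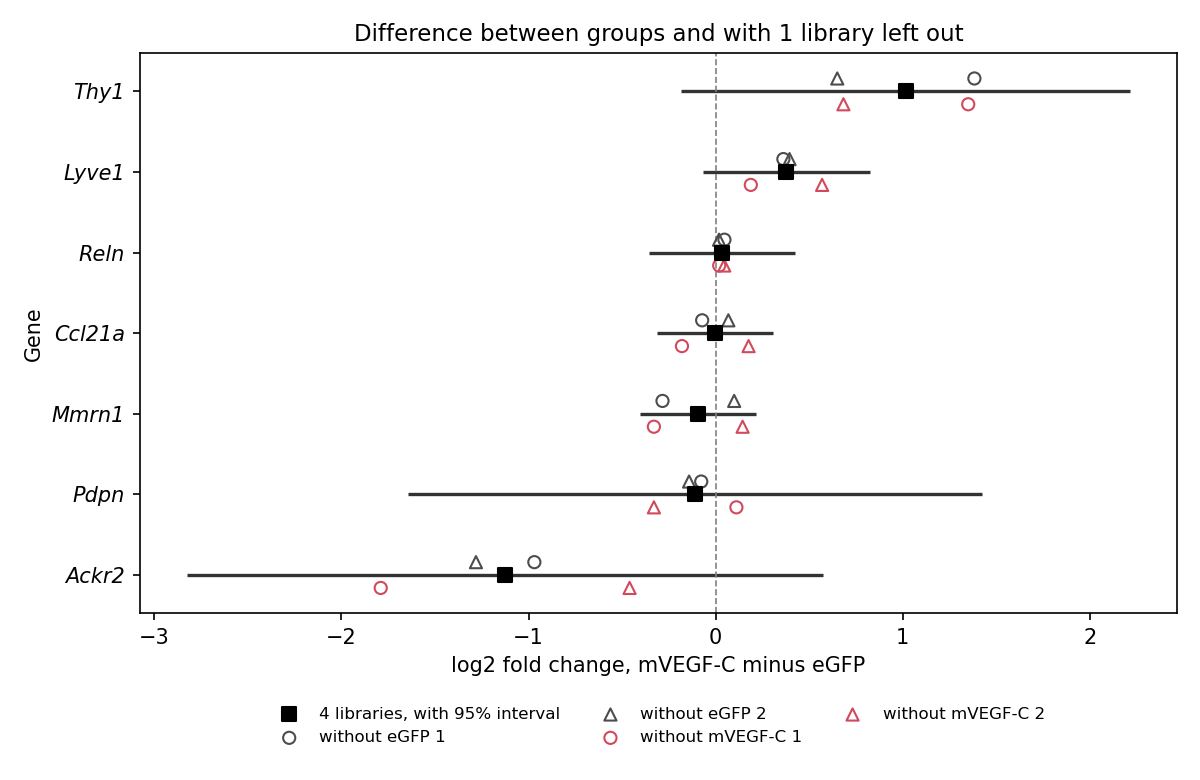
Difference between mVEGF-C and eGFP for each of the 7 marker genes on the log2 scale, as a square with the 95% interval of the limma fit, and as open symbols with each library left out in turn. All 7 intervals span 0, and the open symbols of Pdpn, Ccl21a and Mmrn1 fall on both sides of 0, whereas those of Thy1, Lyve1, Reln and Ackr2 keep to one side.

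Lyve1 encodes LYVE-1, a hyaluronan receptor on lymphatic capillaries at which dendritic cells dock. The gene (ENSMUSG00000030787.4) is on chromosome 7 at 110850607 to 110863239 of GRCm38, minus strand. Normalised counts were 52396 and 53600 in eGFP and 78625 and 60359 in mVEGF-C. Both mVEGF-C libraries were above both eGFP libraries, by a wide step in mVEGF-C 1 and a small one in mVEGF-C 2. The means were 52998 ± 852 and 69492 ± 12916 (SD, n = 2 each), and the difference of 0.38 (SE 0.23, 95% interval -0.07 to 0.83; limma adjusted p = 0.561) did not pass the test. That interval runs from 0.953-fold to 1.77-fold. It rests on the variance trend over all genes and on 2 pools per group, so it sets no firm upper limit on a rise. The difference was 0.19 without mVEGF-C 1 and 0.57 without mVEGF-C 2.

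Some macrophages also express Lyve1. Of 17 macrophage and microglia markers, 4 were tested, and their summed level was 38679 and 40820 in eGFP and 36199 and 30064 in mVEGF-C, lower in both mVEGF-C libraries. Most of that sum was Mrc1, the mannose receptor, which lymphatic endothelium also expresses, at 23299 to 32880. Fcer1g, a signalling chain of Fc receptors, had the smallest p, at 1654 and 2572 in eGFP and 273 and 899 in mVEGF-C (-2.05, limma adjusted p = 0.437). Cd74, the invariant chain of antigen presentation, was at -0.13, and the fractalkine receptor gene Cx3cr1 was at 196 and 387 in eGFP and 328 and 426 in mVEGF-C (0.44). In all, 1 of the 4 was above 0 (median -0.18) and none passed the test. The sort left out cells with CD45, which macrophages carry. The part of such cells in the Lyve1 values was not tested.

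Of 22 hyaluronan and LYVE-1 partners, 13 were tested, 7 were above 0 (median 0.07) and none passed the test. The sinusoidal scavenger receptors for hyaluronan, Stab1 and Stab2, lay on opposite sides of 0. Stab1 was at 26561 and 36515 in eGFP and 54804 and 35155 in mVEGF-C, and its difference was 0.50 (limma adjusted p = 0.558). Stab2 was at 34245 and 45757 in eGFP and 32169 and 26053 in mVEGF-C, at -0.45 (limma adjusted p = 0.644). Only for Stab2 of this pair did the groups not overlap. Cd44, the hyaluronan receptor of many other cells, was at 1121 and 462 in eGFP and 428 and 1340 in mVEGF-C, with no order between the groups.

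Pdpn encodes podoplanin, the mucin-like surface protein by which the cells were sorted, so its presence is a condition of the sort. The gene (ENSMUSG00000028583.14) is on chromosome 4 at 143267431 to 143299564, minus strand. Normalised counts were 3924 and 3752 in eGFP and 3053 and 4144 in mVEGF-C. The 2 mVEGF-C libraries lay on either side of the eGFP pair. The means were 3838 ± 122 and 3598 ± 771 (SD, n = 2 each), a difference of -0.11 (SE 0.78, 95% interval -1.64 to 1.42; limma adjusted p = 0.987). That interval runs from 0.320-fold to 2.68-fold, although the highest library was only 1.36 times the lowest.

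Of 17 podoplanin partners and O-glycan enzymes, 13 were tested and none passed the test, with 5 above 0 and a median of -0.15. Clec1b, the platelet receptor of podoplanin, was not analysed here. Galnt2, one of the enzymes that start O-linked sugar chains such as podoplanin carries, had the smallest p. It was at 44.8 and 19.2 in eGFP and 151 and 925 in mVEGF-C (3.62, SE 1.29, limma adjusted p = 0.126). C1galt1, which extends those chains, was higher in both mVEGF-C libraries, at 1.84, and its chaperone C1galt1c1 was lower in both, at -2.54 (limma adjusted p = 0.574 and 0.369). Galnt1, another enzyme that starts such chains, had far higher counts than Galnt2. It was at 6009 and 13793 in eGFP and 4591 and 6190 in mVEGF-C, with overlapping groups (-0.77, limma adjusted p = 0.735).

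Thy1 encodes a GPI-anchored adhesion protein that lymphatic endothelium shares with T cells, neurons and fibroblasts. The gene (ENSMUSG00000032011.5) is on chromosome 9 at 44043384 to 44048579, plus strand. Normalised counts were 6754 and 4064 in eGFP and 8412 and 13358 in mVEGF-C. Both mVEGF-C libraries were above both eGFP libraries, yet the step between the groups was smaller than the gap within either group. The means were 5409 ± 1902 and 10885 ± 3498 (SD, n = 2 each), a difference of 1.02 (SE 0.61, 95% interval -0.18 to 2.22; limma adjusted p = 0.559), about 2.02-fold. It did not pass the test, and it moved between 0.65 without eGFP 2 and 1.38 without eGFP 1.

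The other cell types that carry Thy1 were read from their markers. Of 22 meningeal fibroblast markers, 14 were tested, and their summed level was 96869 and 58174 in eGFP and 111979 and 77013 in mVEGF-C, overlapping between the groups (exact permutation p = 0.667, two-sided, with 0.333 the smallest possible). Among them Fmod, which encodes the collagen-binding proteoglycan fibromodulin, rose from 5228 and 965 to 15213 and 13846 (2.69, SE 0.68, limma adjusted p = 0.00729), while the other 13 did not pass the test. Of the 14, 10 were above 0 (median 0.52), and members lay far on both sides: Ogn, a small matrix proteoglycan gene, was higher in both mVEGF-C libraries at 1.61, whereas Islr and the collagen gene Col15a1 were lower in both at -2.36 and -2.38. Fmod was not called without eGFP 2, without either mVEGF-C library, without the variance trend or with DESeq2. Of 17 lymphocyte markers, 4 were tested, summing to 1016 and 702 in eGFP and 797 and 408 in mVEGF-C. Of 14 neuron markers, 3 were tested, summing to 694 and 345 in eGFP and 1028 and 673 in mVEGF-C. Of the lymphocyte markers 1 of 4 was above 0 (median -0.95) and of the neuron markers 3 of 3 (median 0.76). Cd3g had the smallest p of the lymphocyte markers, at 23.3 and 21.4 in eGFP and 4.27 and 7.43 in mVEGF-C (-1.81, limma adjusted p = 0.675). Syt1 had that of the neuron markers, at 8.95 and 11.8 in eGFP and 110 and 207 in mVEGF-C (3.75, SE 1.31, limma adjusted p = 0.116). Several defining markers, among them Cd3e and Snap25, were not analysed here. The sort left out cells with CD45, which T cells carry, and cells without CD31, which fibroblasts and neurons lack. The part of these cell types in the Thy1 values was not tested.

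Thy-1 binds integrins on leukocytes and other cells. Of 20 Thy-1 partners and GPI anchor enzymes, 16 were tested and none passed the test, with 8 above 0 and a median of -0.09. Itgb2, the beta chain of leukocyte integrins, had the smallest p, at 191 and 268 in eGFP and 4.27 and 38.1 in mVEGF-C (-3.98, SE 1.31, limma adjusted p = 0.0793). Itgav, the alpha chain of another integrin that Thy-1 binds, was higher in both mVEGF-C libraries, at 0.48, and the GPI transamidase subunit Pigu was lower in both, at -3.11 (limma adjusted p = 0.870 and 0.0833). Itga5, another integrin alpha chain of the list, was at 1311 and 1702 in eGFP and 5900 and 9214 in mVEGF-C (2.30, SE 0.81, limma adjusted p = 0.118). DESeq2 on the recovered reads called Itga5, Itgb2 and Piga of this list.

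**Figure D3:**
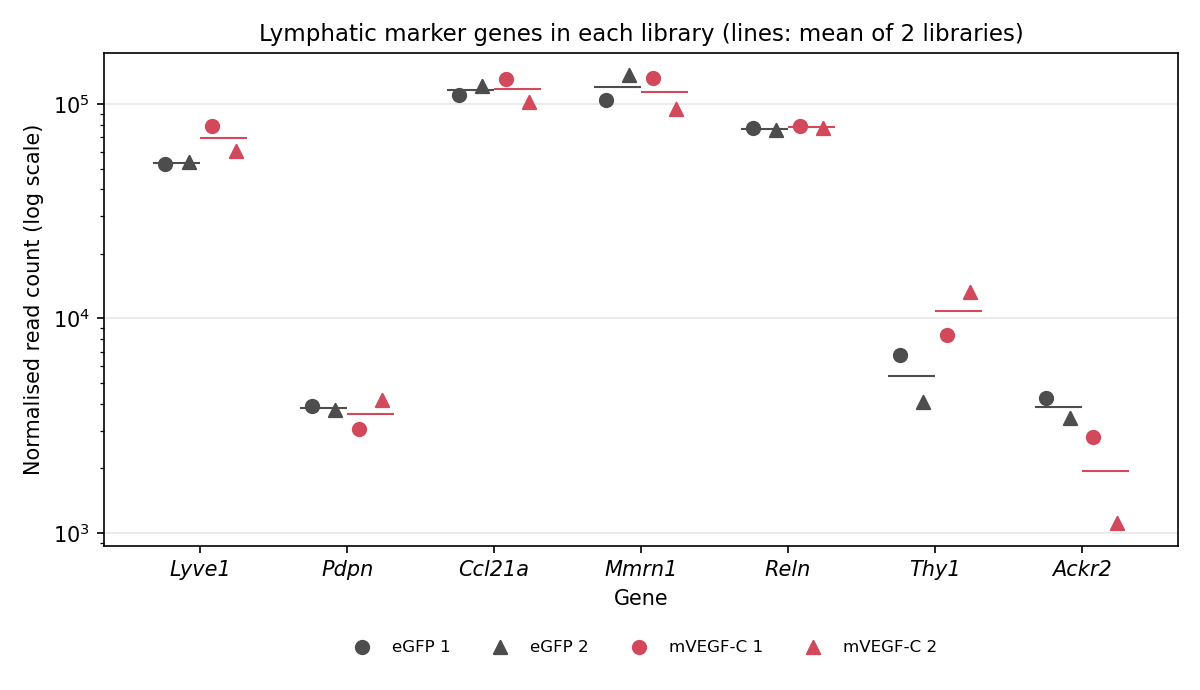
Normalised counts (log axis) of the 7 marker genes in each of the 4 libraries, with eGFP in grey, mVEGF-C in red, circles for library 1 and triangles for library 2 of a group, and a line at each group's mean of 2 libraries. The groups separate in Lyve1, Reln and Thy1 with mVEGF-C above and in Ackr2 with mVEGF-C below, and they overlap in Pdpn, Ccl21a and Mmrn1.

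Ackr2 encodes a scavenger receptor that binds and degrades inflammatory CC chemokines without signalling through G proteins. The gene (ENSMUSG00000044534.8) is on chromosome 9 at 121898355 to 121911074, plus strand. Normalised counts were 4269 and 3437 in eGFP and 2785 and 1107 in mVEGF-C. Both mVEGF-C libraries were below both eGFP libraries, and mVEGF-C 2 stood far below the rest. The means were 3853 ± 588 and 1946 ± 1187 (SD, n = 2 each), a difference of -1.12 (SE 0.87, 95% interval -2.83 to 0.58; limma adjusted p = 0.710) that did not pass the test. It was -0.46 without mVEGF-C 2 and -1.79 without mVEGF-C 1, so the size rests on which mVEGF-C library is read. Of the 4137 genes whose mean reached 1000, 57.5% varied less than Ackr2 between the highest and lowest library.

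Ccl21a (ENSMUSG00000094686.1) is on chromosome 4 at 42772860 to 42773993, minus strand. Normalised counts were 110806 and 122045 in eGFP and 131389 and 102658 in mVEGF-C. The highest and the lowest library were both mVEGF-C, and the eGFP pair lay between them. The means were 116425 ± 7947 and 117024 ± 20316 (SD, n = 2 each), a difference of 0.00 (SE 0.16, 95% interval -0.31 to 0.31; limma adjusted p = 1.0). The interval runs from 0.806-fold to 1.24-fold. Its own replicates spread more than the error that the fit assumed.

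The groups also overlapped in both measured copies. Gm21541 (chromosome 4, 41903610 to 41904743, plus strand) was at 57630 and 68762 in eGFP and 67358 and 58411 in mVEGF-C. Ccl21b (chromosome 4, 42255767 to 42256432, plus strand) was at 11400 and 17041 in eGFP and 12971 and 7202 in mVEGF-C, at -0.53 (95% interval -1.53 to 0.48; limma adjusted p = 0.804). Ccl21a held 58.7% to 62.1% of the reads of the 3 genes in every library, Gm21541 31.8% to 34.7% and Ccl21b 4.28% to 8.20%. These shares leave out Gm13304 and Gm10591, and they depend on how the counting assigned reads that fit several copies. The processing notes name Salmon, but how it was set to divide such reads is not stated. The shares are not scaled to length, and the Ccl21b model is the shorter one. Summed over these 3 genes, a calculation added after the data were seen, the difference was -0.04 (limma adjusted p = 0.968).

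**Figure D4:**
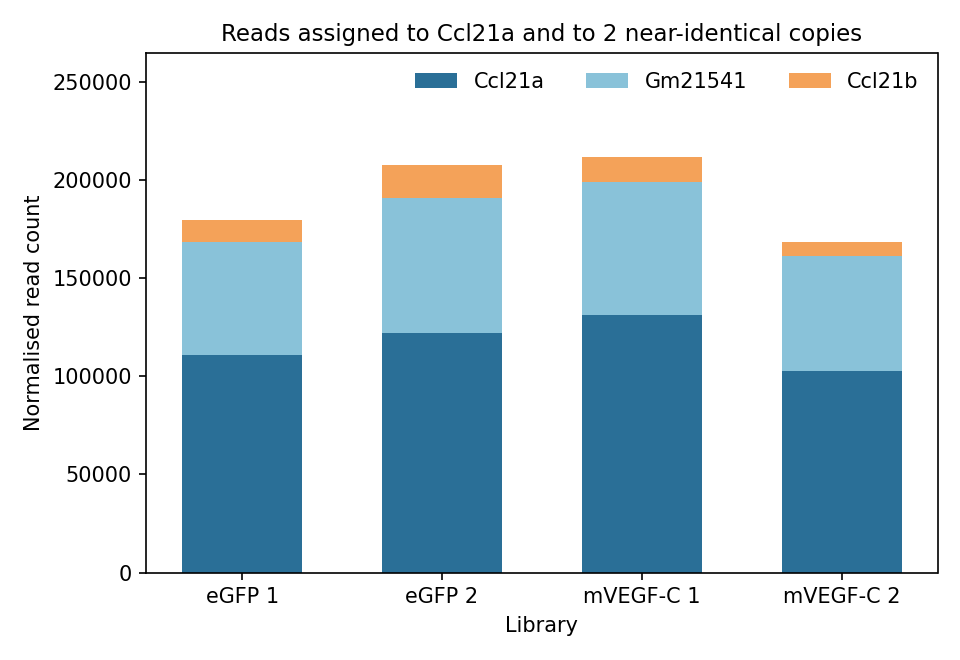
Normalised counts of Ccl21a and of its copies Gm21541 and Ccl21b, stacked in 1 bar for each library. The bars reach 179836 and 207848 in eGFP and 211719 and 168272 in mVEGF-C, and Ccl21a makes up 58.7% to 62.1% of each.

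Of 49 other chemokines and chemokine receptors, 13 were tested and none passed the test, with 7 above 0 and a median of 0.21. Ccl19, the second ligand of CCR7, had the smallest p, at 211 and 1678 in eGFP and 16.02 and 221 in mVEGF-C (-3.28, SE 1.26, limma adjusted p = 0.179), and its groups overlapped. Ackr3, a scavenger receptor for CXCL12 and adrenomedullin, was at 928 and 436 in eGFP and 3335 and 2225 in mVEGF-C, higher in both mVEGF-C libraries (2.10, SE 1.02, limma adjusted p = 0.380). Thus the scavenger receptors Ackr2 and Ackr3 lay on opposite sides of 0, neither past the test. Ccr7, Ackr1 and Ackr4 were not analysed here.

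Mmrn1 encodes multimerin-1, a large secreted glycoprotein of lymphatic endothelium and platelets. The gene (ENSMUSG00000054641.10) is on chromosome 6 at 60924976 to 60989378, plus strand. Normalised counts were 104393 and 136103 in eGFP and 131752 and 94845 in mVEGF-C. In each group 1 library was near the top and 1 near the bottom of the range, so the groups overlapped fully. The means were 120248 ± 22423 and 113299 ± 26098 (SD, n = 2 each), a difference of -0.09 (SE 0.16, 95% interval -0.40 to 0.22; limma adjusted p = 0.918). Its own spread between replicates, an SD of 0.30 on the log2 scale, was above the 0.16 that the fit used, so that interval is narrower than these replicates alone would give.

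Of 12 platelet markers, only Itgb3, an integrin chain that other cells also carry, was tested, at 277 to 3652 normalised counts, lowest and highest in the mVEGF-C pair. Of the 10 genes of the multimerin and EMILIN family and their receptors, 5 were tested and none passed the test, with 2 above 0. Mmrn2, which endothelium secretes as a ligand of CD93, was at 5491 and 4818 in eGFP and 3584 and 2146 in mVEGF-C, lower in both mVEGF-C libraries (-0.89, SE 0.78, limma adjusted p = 0.765). Cd93 was higher in both, at 0.41 (limma adjusted p = 0.832).

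Reln encodes reelin, a large secreted glycoprotein known from neuronal migration and also made by lymphatic endothelium, where it takes part in the maturation of collecting vessels. The gene (ENSMUSG00000042453.14) is on chromosome 5 at 21884454 to 22344702, minus strand. Normalised counts were 77550 and 76009 in eGFP and 79289 and 77770 in mVEGF-C. All 4 libraries lay within 1.04-fold, and the mVEGF-C libraries were above the eGFP libraries by less than either group's own range. The means were 76780 ± 1089 and 78530 ± 1074 (SD, n = 2 each), a difference of 0.03 (SE 0.20, 95% interval -0.36 to 0.42; limma adjusted p = 0.984). Its sign turns with the scaling of the libraries, to -0.04 with upper quartile scaling and -0.05 with total count scaling. Of those 4137 genes, only Flna, which encodes the actin crosslinker filamin A, had a smaller ratio of highest to lowest library, beside a median of 3.34. That median is not matched for abundance, and Reln ranked 13 by mean count. Ccl21a, Pdpn, Mmrn1 and Lyve1 also had low ratios, with 1.57% to 6.41% of those genes varying less, whereas for Thy1 it was 49.1%. The antisense gene Gm10475, which overlaps Reln exons, was at 123 to 767. Reads shared between the 2 genes were not measured, and they cannot be told apart if the counting did not use strand.

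Of 22 genes of reelin reception and signalling, 15 were tested and none passed the test, with 8 above 0 and a median of 0.12. The receptor Vldlr was at 2436 and 1470 in eGFP and 1751 and 845 in mVEGF-C (-0.64, limma adjusted p = 0.904). The receptor Lrp8 was at 338 and 226 in eGFP and 1453 and 161 in mVEGF-C (0.81, limma adjusted p = 0.897), set apart by 1 library. Src, a kinase that acts below these receptors, had the smallest p and was lower in both mVEGF-C libraries (-2.69, SE 1.31, limma adjusted p = 0.383). The adaptor Dab1 was not analysed here.

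Ratios between the 7 marker genes within a library do not depend on how libraries were scaled. Of 21 such pairs, 13 had groups that did not overlap, beside 42.0% of the 41064453 pairs of all tested genes, and the 21 pairs share genes and are not independent. These ratios were looked at after the values were known and carry no test. The ratio of Lyve1 to Ccl21a counts was 0.473 and 0.439 in eGFP and 0.598 and 0.588 in mVEGF-C, close within each group. The ratio of Lyve1 to Reln was 0.676 and 0.705 in eGFP and 0.992 and 0.776 in mVEGF-C. Thy1 to Ackr2 had the widest difference, 2.14 on the log2 scale, with ratios of 1.58 and 1.18 in eGFP and 3.02 and 12.1 in mVEGF-C.

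Of 50 other genes of lymphatic identity, 38 were tested and none passed the test, with 27 above 0 and a median of 0.24. The smallest p was that of Itga9, an integrin chain needed for lymphatic valves, at 7154 and 4677 in eGFP and 18427 and 10795 in mVEGF-C (1.29, SE 0.57, limma adjusted p = 0.293). Summed, these genes were at 467474 and 521836 in eGFP and 601068 and 518213 in mVEGF-C, with overlapping groups. Among 18 pan-endothelial markers, 15 were tested and 11 were above 0, with Ecscr the smallest p (1.40, limma adjusted p = 0.332). Among 18 blood endothelial markers, 15 were tested and 8 were above 0, with Selp, the gene of P-selectin, the smallest p (-3.03, limma adjusted p = 0.0753).

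Of 12 mural cell markers, 5 were tested, with a sum of 28796 and 22693 in eGFP and 18064 and 13248 in mVEGF-C, lower in both mVEGF-C libraries (exact two-sided permutation test over libraries, p = 0.333, which is the least it can give). Of the 5, 1 was above 0 (median -1.07) and none passed the test. Notch3, a receptor of mural cells, had the smallest p, at -2.74 (limma adjusted p = 0.263), whereas Pdgfrb, their receptor for platelet-derived growth factor, was at 2908 and 680 in eGFP and 3532 and 2064 in mVEGF-C (0.94). Of 13 mesothelial and arachnoid markers, 2 were tested, at sums of 22.3 to 87.8. Dsp had the smaller p, at 80.6 and 20.3 in eGFP and 34.2 and 2.79 in mVEGF-C (-1.85, limma adjusted p = 0.662). Over all of these lists, 158 genes were tested and 1, Fmod, was called (0.63%, beside 2.14% of all genes).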

How the data were processed

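The deposited table holds a signal of normalised counts for 9114 genes in 4 libraries. The labels' protocols name the PicoPure kit and linear amplification. Per the submitters' processing notes, the authors used FastQC, Trimmomatic, Salmon and DESeq2 with mm10. For the strand setting and annotation of the counts, the sources used here give nothing. All values (100%) were whole multiples of 1 read within 0.001, which gave back reads and depth. PCR copies cannot be told from molecules.

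Differences were fitted with limma 3.58.1 in R 4.3.3 (trend, two-sided) on log2(normalised count + 1) for 9063 genes with a mean of at least 10. The + 1 understates changes of low genes. The fit had 2 residual degrees of freedom and infinite prior degrees of freedom. Summed marker levels were compared by an exact permutation test over libraries. Alternatives were another pseudocount, no filter, each library left out, a replicate block, no trend, 2 other scalings, and edgeR 4.0.16 and DESeq2 1.42.0 on recovered reads. The fit and its summaries were tested on simulated data.

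Coordinates, exon lengths and transcripts are from GENCODE vM21 on GRCm38. From each list the text names the gene of smallest p, called genes, and known partners or copies of the 7. A few more were chosen after their values were seen (C1galt1, C1galt1c1, Galnt1, Itgav, Itga5, Piga, Pigu, Cd93, Mrc1, Cd74, Cx3cr1, Dcn, Ogn, Col15a1, Islr, Pdgfrb, Nrp2). Prox1, Flt4 and Pecam1 are named as genes of endothelial and lymphatic identity. The 7 genes and the lists were chosen with earlier results of these data known.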

Additional observations from a re-analysis of the deposited data

How the results depend on the processing

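None of the 7 marker genes was called under any alternative, and the lowest adjusted p of any of them was 0.419 (Lyve1). Lyve1 (0.19 to 0.57), Thy1 (0.65 to 1.38) and Ackr2 (-1.79 to -0.46) kept their sign throughout. Values near 0 turned sign. With each library left out in turn, Pdpn ran from -0.33 to 0.11 (0.11 without mVEGF-C 1), Ccl21a from -0.18 to 0.18 (0.07 without eGFP 2, 0.18 without mVEGF-C 2) and Mmrn1 from -0.33 to 0.14 (0.10 without eGFP 2, 0.14 without mVEGF-C 2). Ccl21a was 0.026 with edgeR and 0.006 with DESeq2. Reln was -0.041 with upper quartile and -0.051 with total count scaling, under which the median of all genes was -0.09 and -0.10.

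The 194 genes called became 5 to 292 with a library left out (38 without eGFP 1, 5 without eGFP 2, 292 without mVEGF-C 2), where a group of 1 library is assumed to vary like the other, 41 without the trend and 601 with DESeq2. The 1 list gene called became 0 to 3 with a library left out, 0 without the trend, 2 with edgeR (Fmod, Islr) and 6 with DESeq2. The gene called, Fmod, was not among those called without eGFP 2, without mVEGF-C 1, without mVEGF-C 2, without the trend or with DESeq2. The 6 list genes called with DESeq2 were Galnt2, Islr, Itga5, Itgb2, Piga and Syt1. The cause of these changes between settings was not tested. Replicate numbers were shared between groups, but the deviations of same-numbered libraries were uncorrelated (r = 0.000 over 9063 genes). With a replicate block 203 genes were called and the differences of the 7 genes were the same.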

Other observations

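Likeness of pattern was measured as the root mean square difference between centred log2 profiles over the 4 libraries, among the 8257 genes whose mean reached 50. The genes most like Lyve1 were Stard9 (0.035) and Trim44 (0.046), and those most like Reln were Flna (0.025) and Ttyh3 (0.042). Nearest to Pdpn were Neurl3 (0.028) and Hnrnph1 (0.046), to Ccl21a Tmem126a (0.013) and Nsd3 (0.027), and to Mmrn1 Gm10288 (0.034) and Tmem39a (0.045). Thy1 had Arpc2 (0.035) and Rab11fip1 (0.051), and Ackr2 had Dynlt1c (0.063) and Clip1 (0.089). Within 0.1 of their pattern, Thy1 had 7 genes and Ackr2 2, whereas the other 5 had 24 to 33. With 4 libraries such matches are a description only.

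Nrp2, the co-receptor of VEGFR3 for VEGF-C, was at 34148 and 42448 in eGFP and 63728 and 47757 in mVEGF-C, with mVEGF-C above in both libraries, as in Lyve1 (0.54, SE 0.27, limma adjusted p = 0.398).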
